A study of Mus musculus with 9 samples.

Results

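The histone genes of mouse fetal liver erythroid cells were followed through 3 freshly sorted populations and 6 short cultures. The members were all genes whose current symbol names a linker histone (H1) or a core histone (H2A, H2B, H3 or H4), with the histocompatibility genes of the H2- prefix left out. That gave 83 genes of 19840 features. Of these, 63 were replication-dependent histones, 2 were somatic variant linkers (H1f0 and H1f10) and 5 were somatic variant core histones (H2az1, H2ax, H2aj, H3f3a and H3f3b). The other genes were 3 germline linkers and 10 germline core variants. Genes were put in these classes by their symbols.

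RNA came from C57BL/6 embryos at embryonic day 13.5 to 14.5, with 1 library per condition and no genetic change named for any group. The fresh libraries were BFU-E (early burst-forming progenitors, the 10% lowest for the transferrin receptor CD71 among Kit-positive, lineage-negative cells), CFU-E (later colony-forming progenitors, the 20% highest for CD71) and Ter119+ erythroblasts, which were Kit-negative. Cultured BFU-E spent 4 h with the factors SCF at 100 ng/mL, IGF-1 at 40 ng/mL and EPO at 2 U/mL, without serum, and another 4 h with an addition. Cells sorted for low CD71 alone (the CD71 sort) received 100 nM dexamethasone (Dex, a synthetic glucocorticoid) or water. Cells sorted for low CD71 and low CD24a (the CD71/CD24a sort) received Dex, Dex with 333 µM DMOG (a prolyl hydroxylase inhibitor), DMOG alone, or water. Each set of arms was split from 1 pool of sorted cells, which gave 3 pairs with and without Dex. Levels below are RPKM, a read density that accounts for transcript length and library size, divided by a median-ratio factor per library, called normalised RPKM. The steps between low values put the depth at 11.9 to 53.0 M (mega) reads. In bulk RNA, fewer cells of a type and less RNA per cell cannot be told apart.

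Histones package DNA: H2A, H2B, H3 and H4 form the nucleosome core, and the linker H1 binds where DNA enters and leaves it. Replication-dependent histone genes lie in clusters, are transcribed mainly in S phase, and give mRNAs that normally end just after a conserved stem-loop bound by the protein Slbp, without a poly(A) tail. Variant histone genes are transcribed through the cell cycle, and most give polyadenylated mRNAs. Erythroblasts divide while their chromatin condenses, and in mammals they finally lose the nucleus. The libraries were made with an mRNA kit. Such kits as a rule select poly(A) tails, so the replication-dependent levels may cover only part of those transcripts.

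The 3′ ends are shown first, since most replication-dependent transcripts carry the stem-loop and few other members do. A perfectly paired stem-loop of 16 bases was found in the annotated transcript (GENCODE M21, GRCm38) of 42 of 63 replication-dependent genes. It was also found in 1 of 5 variant core genes (H2ax), in 1 of 3 germline linkers (H1f6) and in 0 of 2 variant linkers. Some replication-dependent genes without it, such as H2ac13, H2bc13, H3c10 and H4c12, have short annotated transcripts that may stop before the 3′ end. For such genes the search cannot tell whether the stem-loop is absent. The sites of 8 genes described below follow, 5′ to 3′, with the stem-loop in capitals.
H1f2: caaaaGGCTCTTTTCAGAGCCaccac
H2aw: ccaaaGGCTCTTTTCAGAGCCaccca
H2bu2: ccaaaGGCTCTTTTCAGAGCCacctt
H2bc11: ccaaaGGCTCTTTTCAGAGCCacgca
H3c3: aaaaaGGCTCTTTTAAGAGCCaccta
H4c9: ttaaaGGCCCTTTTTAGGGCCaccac
H4c14: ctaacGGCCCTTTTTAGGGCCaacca
H2ax: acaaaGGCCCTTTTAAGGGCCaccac
In these 8 sites the H1, H2A, H2B and H3 genes of the replication-dependent class share the same stem, and the H4 genes share another with H2ax. The annotated transcript ran on for 840 bases after the stem-loop in H1f2 and for 1643 bases in H2aw, against 23 bases in H2bc11. A poly(A) signal (AATAAA or ATTAAA) stood in the last 50 bases of 15 of the 63 replication-dependent transcripts, and 12 of these 15 also had the stem-loop. The median distance from the stem-loop to the transcript's end was 612.5 bases in those 12 and 46.5 bases in the 30 with a stem-loop and no such signal. Short annotated transcripts may likewise stop before a poly(A) signal.

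The promoters of 3 replication-dependent genes from 3 families, H1, H2A and H2B, are shown beside that of the variant linker H1f0, because the 3 stood far above CFU-E in Ter119+ cells and H1f0 did not. Each window runs from 250 bases before to 50 bases after the gene's start (RefSeq, GRCm38.p6). Capitals mark CCAAT, the octamer ATTTGCAT and TATAAA, on either strand.
H1f2 (chr13:23738557-23738856, plus strand): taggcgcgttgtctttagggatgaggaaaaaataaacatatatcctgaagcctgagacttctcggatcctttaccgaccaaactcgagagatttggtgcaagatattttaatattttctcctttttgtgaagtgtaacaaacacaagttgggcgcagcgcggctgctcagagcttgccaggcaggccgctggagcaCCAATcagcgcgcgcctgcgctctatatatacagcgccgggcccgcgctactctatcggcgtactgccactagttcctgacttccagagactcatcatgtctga
H2aw (chr11:58954435-58954734, plus strand): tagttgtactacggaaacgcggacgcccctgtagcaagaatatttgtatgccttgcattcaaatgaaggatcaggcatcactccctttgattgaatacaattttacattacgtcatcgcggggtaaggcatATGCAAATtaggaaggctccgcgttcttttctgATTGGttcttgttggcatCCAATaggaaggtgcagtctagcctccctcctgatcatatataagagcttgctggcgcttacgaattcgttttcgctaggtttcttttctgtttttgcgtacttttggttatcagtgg
H2bu2 (chr11:58948661-58948960, plus strand): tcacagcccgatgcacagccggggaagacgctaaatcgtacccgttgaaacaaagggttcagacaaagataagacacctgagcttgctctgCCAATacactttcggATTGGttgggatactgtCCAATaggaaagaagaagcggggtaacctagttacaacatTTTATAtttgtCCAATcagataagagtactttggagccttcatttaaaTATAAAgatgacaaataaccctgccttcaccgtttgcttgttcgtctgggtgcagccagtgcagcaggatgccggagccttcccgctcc
H1f0 (chr15:79027962-79028261, plus strand): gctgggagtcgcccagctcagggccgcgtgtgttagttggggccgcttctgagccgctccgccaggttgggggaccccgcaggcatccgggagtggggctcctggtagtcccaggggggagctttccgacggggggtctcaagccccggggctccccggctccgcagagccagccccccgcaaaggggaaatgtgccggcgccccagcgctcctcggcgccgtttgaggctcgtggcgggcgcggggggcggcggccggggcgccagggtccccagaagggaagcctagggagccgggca
H1f2 held 1 CCAAT, H2aw held 2 and 1 octamer, H2bu2 held 4 and 2 TATAAA, and H1f0 held none of the 3 motifs. CCAAT stood in 50 of 58 replication-dependent windows (86.2%), against 37.9% of all 27025 windows of that length. It was in every such window of H1 (5), H2A (17), H2B (15) and H3 genes (10) and in 3 of 11 H4 windows. The octamer stood in 13 of the 58 windows (22.4%), 7 of H2A and 6 of H2B genes, against 1.75% of all windows. TATAAA stood in 34 of 58 (58.6%), against 14.2% of all windows. The 2 variant linker windows held 0 CCAAT, and 4 of 4 variant core windows held it.

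Short reads tell many histone genes apart poorly. The share of a gene's 32-base words found in transcripts of any other gene was at least 10% in 58 of 63 replication-dependent genes (median 58.4%). It was at least 10% in all 5 variant core genes (median 16.7%) and was 15.3% for H1f10 and 6.52% for H1f0. This share is taken over the whole annotated transcript. For some genes the steps between low values put the stretch counted for RPKM far below that length. Among these were H4f16, H2bc9, H3c4, H4c4 and H4c11, and also H4c14 and H1f3, both under 10% here. Shares over the counted stretch were not computed and may differ, so groups by sharing are approximate. How reads with several matches were counted is not given in the sources used here, so single values of the shared genes are uncertain, and class sums are given beside them. No read was seen in any library for 12 genes. Of these, 9 were germline core variants, 2 germline linkers and 1 (H2bc1) replication-dependent by its symbol. At least 3 reads in at least 1 library were seen for 69 genes. Over the 9 libraries 13 genes averaged 5 or more normalised RPKM: both variant linkers, all 5 variant core histones, and the replication-dependent H1f2, H4c9, H2bc4, H2ac10, H2aw and H4c4. Of the other replication-dependent genes 26 averaged from 1 to under 5, and 31 averaged under 1.

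**Figure D1:**
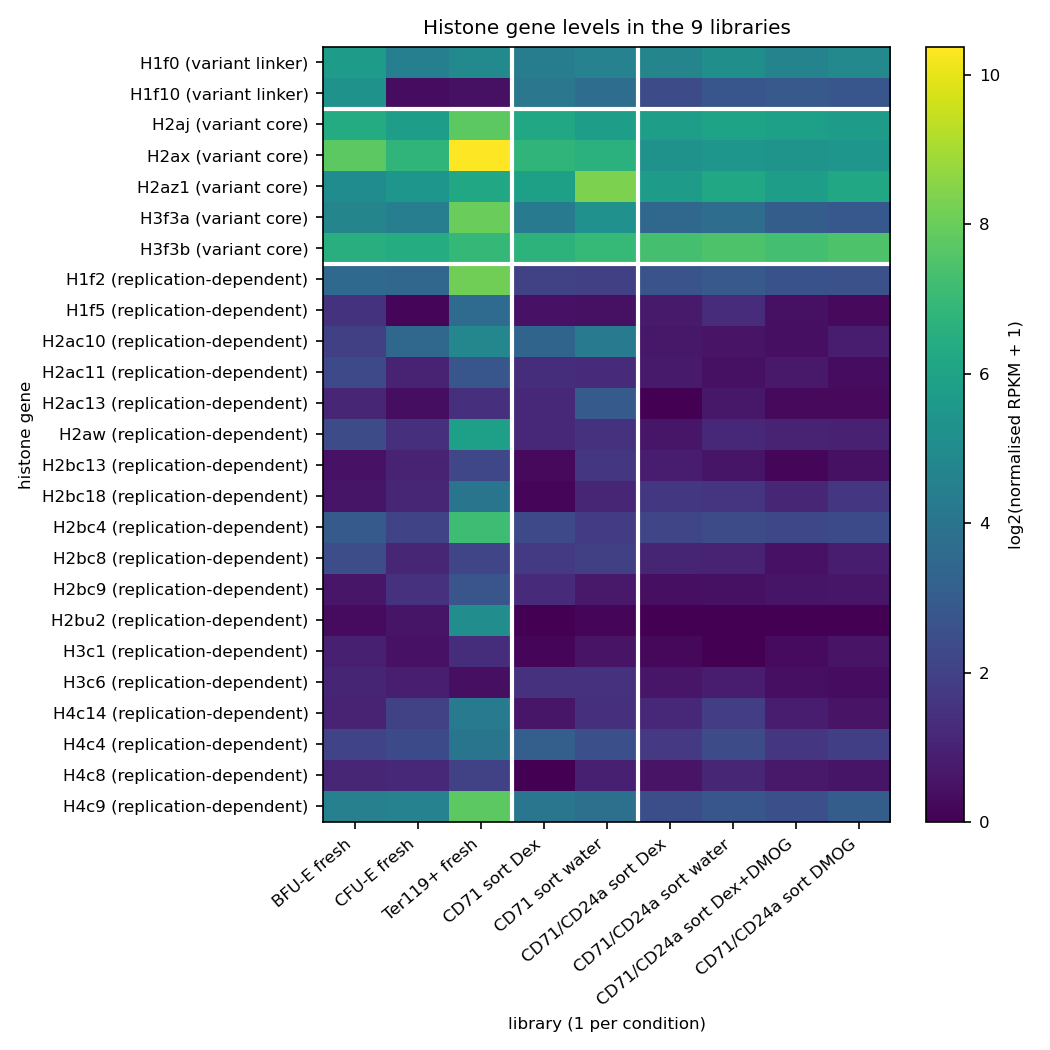
Heat map of 25 histone genes (rows: those with a mean of 5 or more normalised RPKM or among the 5 largest or smallest fresh differences) in the 9 libraries (columns, 1 per condition), coloured by log2(normalised RPKM + 1). H2ax reached 1327 and H1f2 reached 280 normalised RPKM in Ter119+ cells, and H1f10 stood at 0.254 and 0.384 in CFU-E and Ter119+ cells.

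H1f0 and H1f10 are the linker variants of somatic cells, and H1f0 is known for accumulating in cells that stop dividing. H1f0 had 50.9, 21.6 and 29.7 normalised RPKM in BFU-E, CFU-E and Ter119+ cells. H1f10 had 38.7, 0.254 and 0.384, from 922, 8 and 3 reads. Both were at their highest of all 9 libraries in fresh BFU-E, and H1f10 was nearly undetected in both later populations. H1f10 was 152-fold lower in CFU-E than in BFU-E (ratio 0.00658, exact 95% interval 0.00282 to 0.0130), and H1f0 was 2.36-fold lower (ratio 0.424, 0.394 to 0.456). These intervals cover counting error between 2 libraries only. The sum of both linkers was 21.8 in CFU-E and 89.6 in BFU-E, 4.10-fold lower in CFU-E.

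The replication-dependent linkers moved otherwise. H1f2, the most abundant of the 5, had 10.5, 9.60 and 280 normalised RPKM in BFU-E, CFU-E and Ter119+ cells, and H1f5 had 1.90, 0.115 and 11.3. Both stood highest in Ter119+ cells. Their family summed to 13.9, 10.6 and 302. As a share of all linker RPKM, which no scaling factor touches, the 2 variant linkers made up 86.6% in BFU-E, 67.4% in CFU-E and 9.04% in Ter119+ cells, and 79.9% to 89.6% in the 6 cultures. The linker transcripts of Ter119+ cells were thus mostly H1f2, with 3203 reads in that library.

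Between CFU-E and BFU-E few core histones differed by the size rule used for pairs of single libraries, a difference of at least 1 on the log2(normalised RPKM + 1) scale, called 2-fold from here on. There is no replicate, so no test is given. Of 31 members at 1 or more in either library, 2 were higher in CFU-E, against 3.32% of all 9947 genes compared, and 6 were lower, against 12.3%. The higher ones were H2ac10 (10.4 in CFU-E and 2.86 in BFU-E, log2 difference 1.57) and H4c14 (3.10 and 1.03, 1.02). Beside both variant linkers, the lower ones were H1f5 (0.115 in CFU-E and 1.90 in BFU-E, −1.38), H2bc8 (1.19 and 4.49, −1.32), H2ac11 (1.06 and 3.88, −1.24) and H3c3 (0.322 and 1.81, −1.09). The next largest positive differences were 0.88 for H2bc9, 0.52 for H2bc13 and 0.52 for H2bc18, all from 18 or fewer CFU-E reads. The 63 replication-dependent genes summed to 87.4 in CFU-E and 93.3 in BFU-E, a ratio of 0.937, with a median difference of −0.04 against −0.08 over all expressed genes. The 5 variant core genes summed to 311 in CFU-E and 446 in BFU-E, and 0 of 5 passed the size rule.

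Ter119+ cells stood apart. The replication-dependent genes summed to 93.3, 87.4 and 1022 normalised RPKM in BFU-E, CFU-E and Ter119+ cells, from 1525, 1758 and 8111 reads. Of 58 members at 1 or more in Ter119+ or CFU-E cells, 50 were at least 2-fold higher in Ter119+ cells, against 22.6% of 9530 genes, and 0 were lower, against 28.8%. The 50 were 46 of 51 replication-dependent genes, 3 of 5 variant core genes (H2ax, H3f3a and H2aj) and the germline variant H2al1m, which had 15 reads in Ter119+ and 1 read in CFU-E cells and shares 87.9% of its sequence. Genes that pass the filter through the library where they are high are more likely to be counted as higher. The median over all 63 replication-dependent genes was 1.67, and the median over all expressed genes was −0.21.

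The scaling factor of the Ter119+ library bears on every one of these values. It was 0.419, against 1.02 to 1.18 in the other 8 libraries, and it raised Ter119+ levels by 1.37 on the log2 scale relative to CFU-E. On RPKM as deposited, 23 members were at least 2-fold higher, against 8.46% of 9318 genes, and 0 lower, against 60.3%, and 20 of the 23 were replication-dependent. The median over all expressed genes was then −1.26 and the replication-dependent median 0.55. The deposited sums were 428 in Ter119+ and 94.9 in CFU-E cells, 4.51-fold, in place of 11.7-fold after scaling.

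**Figure D2:**
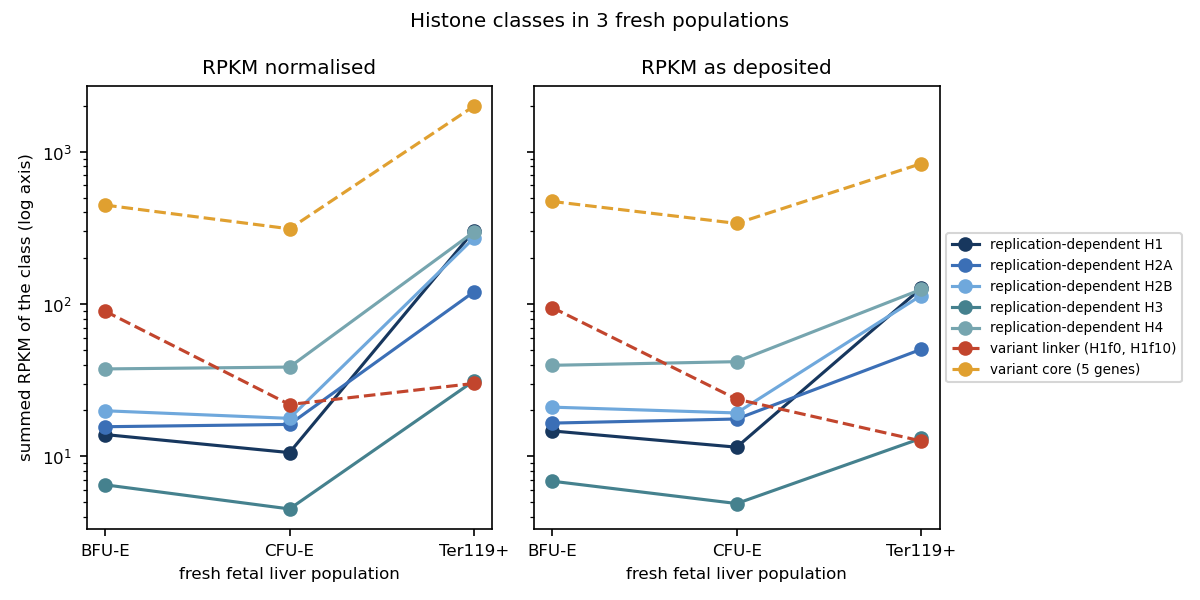
Summed level of each histone class and family in fresh BFU-E, CFU-E and Ter119+ cells, in normalised RPKM (left) and RPKM as deposited (right), on log axes, with 1 library per stage and no error bar. All 5 replication-dependent families are highest in Ter119+ cells in both panels, and the variant linkers stand at 89.6, 21.8 and 30.1 on the left and at 94.7, 23.7 and 12.6 on the right.

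All 5 replication-dependent families were higher in Ter119+ than in CFU-E cells by their sums, on both scales. The H1 family summed to 302 in Ter119+ and 10.6 in CFU-E cells, 28.6-fold (11.1-fold as deposited). H2B summed to 271 and 17.7, 15.3-fold (5.91-fold). H4, H2A and H3 summed to 297, 120 and 31.3 in Ter119+ cells, against 38.5, 16.2 and 4.50 in CFU-E cells. Their folds were 7.72, 7.42 and 6.94 (2.98, 2.87 and 2.68 as deposited). The 5 genes with under 10% shared sequence (H1f1, H1f3, H1f5, H2bc21 and H4c14) gave 64.5 in Ter119+ and 6.55 in CFU-E cells, 9.85-fold (3.80-fold), the same direction as the whole class.

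A few genes carried most of the sum. H2bc4 had 141 normalised RPKM in Ter119+ and 3.34 in CFU-E cells, 42.2-fold (exact 95% interval 34.4 to 52.3). H1f2 was 29.1-fold higher (26.2 to 32.4), and H2aw had 56.4 in Ter119+ and 1.67 in CFU-E cells, 33.8-fold (27.2 to 42.2). H2bu2 had 33.4 in Ter119+ and 0.498 in CFU-E cells, 67.0-fold, with the wide interval of 32.7 to 156 that 8 CFU-E reads allow. H1f2, H2aw and H2bu2 are 3 of the genes whose stem-loop and promoter are printed above. H4c9, an H4 gene with a poly(A) signal after its stem-loop, had 214 in Ter119+ and 23.5 in CFU-E cells. H1f2, H4c9 and H2bc4, the 3 most abundant in Ter119+ cells, made up 62.1% of the replication-dependent sum there. The same 3 genes made up 41.7% in CFU-E and 42.0% in BFU-E. They were not the 3 most abundant in CFU-E cells, where H2ac10 at 10.4 stood above H1f2 and H2bc4.

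At the other end, H2ac10 had 26.7 in Ter119+ and 10.4 in CFU-E cells, and its difference of 1.28 became −0.01 on deposited values. The 5 expressed replication-dependent genes whose difference was under 1 on the log2(normalised RPKM + 1) scale were H2bc6, H3c1, H3c10, H3c4 and H4c8. They rested on 4 to 21 Ter119+ reads, and the ratios of their levels were 2.59 to 14.1, since the added 1 understates the change of low genes. H3c1 had 1.53 in Ter119+ and 0.434 in CFU-E cells (0.82), and H4c8 had 3.19 and 1.23 (0.91). H2bc21 (27.2 in Ter119+ and 2.96 in CFU-E cells), H2bc18 (15.2 and 1.17) and H4c14 (18.1 and 3.10) lay between.

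The genes were also read by their annotated 3′ end. Of 15 replication-dependent genes with a poly(A) signal, 5 reached 20 or more normalised RPKM there, against 2 of 48 without one, with medians of 6.38 and 3.56. The genes with the signal summed to 44.2, 44.9 and 660 in BFU-E, CFU-E and Ter119+ cells, and those without to 49.1, 42.6 and 362. The fold of Ter119+ over CFU-E was 14.7 with the signal and 8.51 without (5.68 and 3.29 as deposited). Both sets stood higher in Ter119+ cells, and no test was made between them. Single genes weigh on both sums. H2bc4, without the signal, had 141 in Ter119+ and 3.34 in CFU-E cells, and H1f2, with it, had 280 and 9.60. Some genes with the signal, such as H4f16 and H4c14, were counted over a stretch far below their annotated length. Some without it have short annotated transcripts that may stop before the 3′ end.

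The core variants did not move alike. H2ax, the variant phosphorylated at DNA breaks and the member of its class with the stem-loop, had 216, 110 and 1327 normalised RPKM in BFU-E, CFU-E and Ter119+ cells. It was 12.1-fold higher in Ter119+ than in CFU-E cells (11.7 to 12.5). H3f3a, which encodes the H3 replacement variant, had 25.6, 20.6 and 254, 12.3-fold higher in Ter119+ cells (11.6 to 13.0). H2aj had 82.0, 54.1 and 218, 4.04-fold higher in Ter119+ than in CFU-E cells.

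H3f3b encodes the same protein as H3f3a, and its levels were 90.1, 84.0 and 121. Its difference between Ter119+ and CFU-E cells was 0.52, and −0.83 on deposited values. As a share of both genes' RPKM, H3f3a was 22.1%, 19.7% and 67.7% in BFU-E, CFU-E and Ter119+ cells and 3.39% to 22.8% in the cultures. H2az1, a variant found at promoters, had 32.1, 43.1 and 71.5, a difference of 0.72 between Ter119+ and CFU-E cells and −0.63 as deposited. H1f0, at 29.7 in Ter119+ and 21.6 in CFU-E cells, likewise turned from 0.44 to −0.86. So the directions of H3f3b, H2az1 and H1f0 depend on the scaling, and those of H2ax and H3f3a do not. The variant core sum was 1992 in Ter119+ and 311 in CFU-E cells, 6.39-fold (2.47-fold as deposited). Replication-dependent RPKM was 14.8%, 20.8% and 33.6% of the sum of replication-dependent and somatic variant RPKM in BFU-E, CFU-E and Ter119+ cells.

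Against BFU-E, 47 of 60 expressed members were at least 2-fold higher in Ter119+ cells (21.2% of 10249 genes were) and 1 was lower (35.8% were). The lower one was H1f10, with a ratio of 0.00994 (0.00179 to 0.0254). The largest differences were in H2bu2 (4.78), H1f2 (4.61), H2bc4 (4.21), H2aw (3.45) and H2bc18 (3.41). Next to H1f10 the smallest were H1f0 (−0.76), H3c6 (−0.67, from 1 read in Ter119+ cells and 9 in BFU-E), H2bc8 (−0.27) and H2ac13 (0.33). This comparison shares its Ter119+ library with the one above. On deposited values 24 were higher (8.97% of 10080 genes) and 3 lower (62.0%). Here too, genes that pass the filter through the library where they are high are more likely to be counted as higher. Without that filter, the median normalised difference over all 63 replication-dependent genes was 1.48. It was −0.40 over all expressed genes.

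Markers of other cells moved with these results. By the 2-fold rule, 22.6% of all genes were higher in Ter119+ than in CFU-E cells (8.46% as deposited). In CFU-E over BFU-E 12.3% were lower. The 8 erythroid markers were all higher in Ter119+ than in CFU-E cells, summing to 104075 and 965 normalised RPKM. Of 12 neutrophil and mast cell markers 9 were higher (205 in Ter119+ and 4.87 in CFU-E cells, with Mcpt4 at 0 in both), as were 6 of 7 macrophage markers (40.3 and 1.53) and 4 of 6 megakaryocyte markers (90.5 and 14.9). On deposited values 5 erythroid, 8 neutrophil and mast cell, 4 macrophage and 2 megakaryocyte markers were at least 2-fold higher. Hepatocyte markers summed to 18.9 in Ter119+ and 8.81 in CFU-E cells, the other way round as deposited (7.94 and 9.56), lymphoid markers to 10.2 and 0.756 (Cd79a at 0 in Ter119+ cells and Cd3e at 0 in both), and endothelial markers to 3.17 and 23.3. Between CFU-E and BFU-E all 4 early progenitor markers were lower in CFU-E (85.9 in CFU-E and 297 in BFU-E), and neutrophil and mast cell markers summed to 4.87 and 100. The part of these cells in the histone values was not tested.

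**Figure D3:**
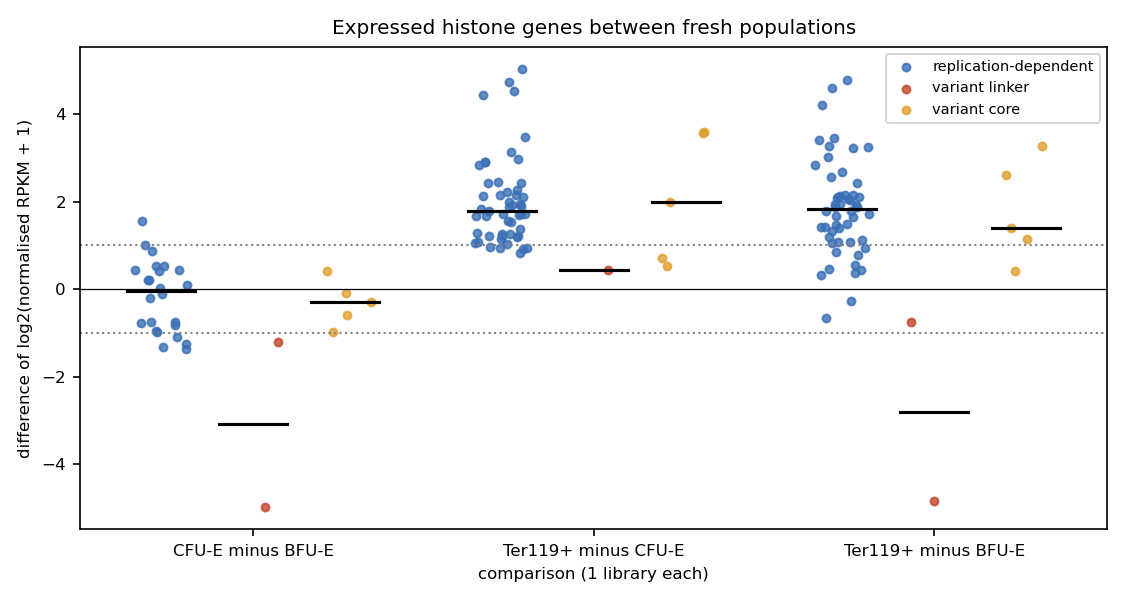
Difference of each expressed replication-dependent or somatic variant histone gene in 3 comparisons of fresh libraries, on the log2(normalised RPKM + 1) scale, with 1 point per gene, bars at class medians and dotted lines at the 2-fold rule. In Ter119+ minus CFU-E cells 46 of 51 replication-dependent genes lie at or above 1 and 0 at or below −1, and in CFU-E minus BFU-E 2 and 4 of 24 do.

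Genes that make, process and carry histones were read from lists of partner genes. Of 22 expressed genes of histone mRNA synthesis and 3′ processing, 0 differed 2-fold between CFU-E and BFU-E. Between Ter119+ and CFU-E cells 6 of 23 were higher and 4 lower, and on deposited values 0 were higher and 12 lower. Of all genes, 22.6% were higher and 28.8% lower in that comparison, and 8.46% and 60.3% on deposited values. In CFU-E over BFU-E these shares were 3.32% and 12.3%. They stand beside the lists that follow too. E2f1, a transcription factor of the S phase program, had 183 in Ter119+ and 40.3 in CFU-E cells (2.15). Zfp473, which takes part in histone 3′ processing, had 5.69 and 0.802 (1.89). Hinfp, a regulator of H4 genes, had 27.7 and 8.95 (1.53), and Nfyb, a subunit of the factor that binds CCAAT, had 34.1 and 11.2 (1.52). Cpsf3, the cleavage enzyme, had 11.9 in Ter119+ and 52.4 in CFU-E cells (−2.05), and Mblac1 had 1.25 and 5.40 (−1.51). Slbp, named after its values were seen, had 174 in Ter119+ and 65.9 in CFU-E cells (1.38, and 0.02 as deposited).

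Of 30 histone chaperones and exchange factors, 6 were higher and 8 lower in Ter119+ than in CFU-E cells (1 and 18 as deposited). Asf1b, a chaperone of new H3 and H4, had 292 in Ter119+ and 50.8 in CFU-E cells (2.50, and 1.14 as deposited). Npm1, an abundant nucleolar chaperone, had 17.7 and 249 (−3.74), Set had 1.84 and 20.7 (−2.94), and the importin Ipo4 had 11.3 and 49.0 (−2.02). Rbbp4 had 159 and 50.7 (1.63). Hjurp, the chaperone of the centromeric histone, had 148 and 60.1 (1.29, turning to −0.07 as deposited). Between CFU-E and BFU-E 0 of 30 differed 2-fold.

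Of 23 S phase genes 9 were higher and 0 lower in Ter119+ than in CFU-E cells (2 and 6 as deposited). E2f2 had 1113 in Ter119+ and 16.5 in CFU-E cells (5.99), Rrm2 748 and 99.6 (2.89), Ccne2 14.6 and 4.22 (1.58), Cdk2 80.4 and 28.6 (1.46), and Tyms 61.1 and 24.7 (1.27, or −0.06 as deposited). In CFU-E over BFU-E 3 were higher and 0 lower: Ccne1 (99.7 in CFU-E and 25.9 in BFU-E), Rrm2 (99.6 and 48.2) and Ccne2 (4.22 and 1.56). The S phase sum was 1822, 2263 and 5031 normalised RPKM in BFU-E, CFU-E and Ter119+ cells. As deposited it was 1924, 2456 and 2108, so that Ter119+ cells then stood below CFU-E cells.

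Of 15 expressed linker and compaction partners, 2 were higher and 6 lower in Ter119+ than in CFU-E cells (1 and 7 as deposited). Xpo7, an exportin known from histone export in maturing erythroblasts, had 426 in Ter119+ and 2.12 in CFU-E cells (7.10). Hmgb2, a high mobility group protein that was the other higher one and is named after its values were seen, had 56.8 and 25.0 (1.15, and −0.18 as deposited). Hmga1, also of the high mobility group, had 6.85 in Ter119+ and 96.6 in CFU-E cells (−3.64), and Hmgn1 4.31 and 51.5 (−3.30). Kat2a had 2.92 and 46.8 (−3.61), Parp1 28.5 and 151 (−2.36), and Hdac2 14.1 and 39.2 (−1.41). In CFU-E over BFU-E 2 were lower, Hmga2 (1.21 in CFU-E and 7.93 in BFU-E) and Xpo7 (2.12 and 5.52). Outside the symbol rule, Macroh2a1, a variant with a macro domain, had 259, 44.2 and 21.5 in BFU-E, CFU-E and Ter119+ cells, and the centromeric variant Cenpa had 62.0, 62.9 and 181. Between Ter119+ and CFU-E cells Macroh2a1 differed by −1.01 (−2.29 as deposited) and Cenpa by 1.51 (0.15 as deposited).

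Culture itself was compared with fresh BFU-E through the 2 water arms. In the CD71 sort water culture 13 of 43 expressed members were at least 2-fold higher than in fresh BFU-E (6.27% of 10060 genes) and 7 were lower (9.06%). In the CD71/CD24a sort water culture 2 of 31 were higher, H2az1 and H2bc18 (11.2% of 10080 genes), and 10 were lower (12.9%). Only H2az1 was higher in both, with 316 in the CD71 sort and 71.2 in the CD71/CD24a sort, against 32.1 in fresh BFU-E. Lower in both were H1f10 (12.2 and 5.82, against 38.7), H2ax (96.7 and 43.0, against 216) and H2ac11 (1.39 and 0.390, against 3.88). The CD71 sort water culture was also lower in H1f0, H1f2, H1f5 and H2bc4. The CD71/CD24a sort water culture was also lower in H2ac10, H2aw, H2bc8, H3c3, H3f3a, H4c12 and H4c9. Both comparisons share the fresh library, and sorting and culture cannot be told apart.

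The Dex comparison asked what 4 h of glucocorticoid did to cultured BFU-E. It was tested with limma over the 3 pairs, with the culture pair in the model, on 9535 genes, with Benjamini-Hochberg adjustment and a threshold of 0.05. The replicates are divided arms, so the p-values measure the spread between these arms. None of the 26 histone members tested passed, while 2.02% of all genes did, 1.39% higher and 0.629% lower. At an unadjusted p under 0.05 there were 7 members, all lower with Dex, against 16.2% of all genes in either direction. H1f0 had 19.9, 25.1 and 23.7 normalised RPKM with Dex in the CD71 sort pair, the CD71/CD24a pair and the pair with DMOG, against 23.0, 34.6 and 28.4 in the paired arms without it. It was lower with Dex in 3 of 3 pairs, by −0.30 (SE 0.078) on the log2 scale, with a limma adjusted p of 0.143. H3f3b had 103, 157 and 152 with Dex, against 124, 176 and 179 without, a difference of −0.22 with a limma adjusted p of 0.194. H2bc21 differed by −0.30, with a limma adjusted p of 0.218. The other 4 were H4c2 (−0.69), H2az1 (−1.07), H2ac13 (−0.80) and H2bc18 (−0.46).

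In all, 6 members were lower with Dex in 3 of 3 pairs (H1f0, H2ac13, H2az1, H2bc21, H3f3b and H4c2) and 0 were higher in 3 of 3, while 21.2% of all tested genes were lower and 19.5% higher in 3 of 3. The median member difference was −0.24, against −0.02 over all tested genes. Without the CD71 sort pair 6 members passed, all lower with Dex, while 7.14% of genes were then lower. They were H2az1 (−0.39, limma adjusted p = 0.00257), H1f0 (−0.35, 0.00946), H2bc11 (−0.50), H4c9 (−0.42), H4c4 (−0.47) and H4c2 (−0.64). Leaving out only the water library of that pair leaves its Dex library unpaired. The Dex differences are then the same by design, so this is not a separate check. Without the DMOG pair 4 passed, H4c2, H2ac13, H2az1 and H4c14, all lower, where 0.986% of genes were lower and 1.56% higher. Without the CD71/CD24a pair 0 did (0.367% and 1.14% of genes). Among the partner genes E2f1 rose with Dex by 0.48 (limma adjusted p = 0.0313).

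**Figure D4:**
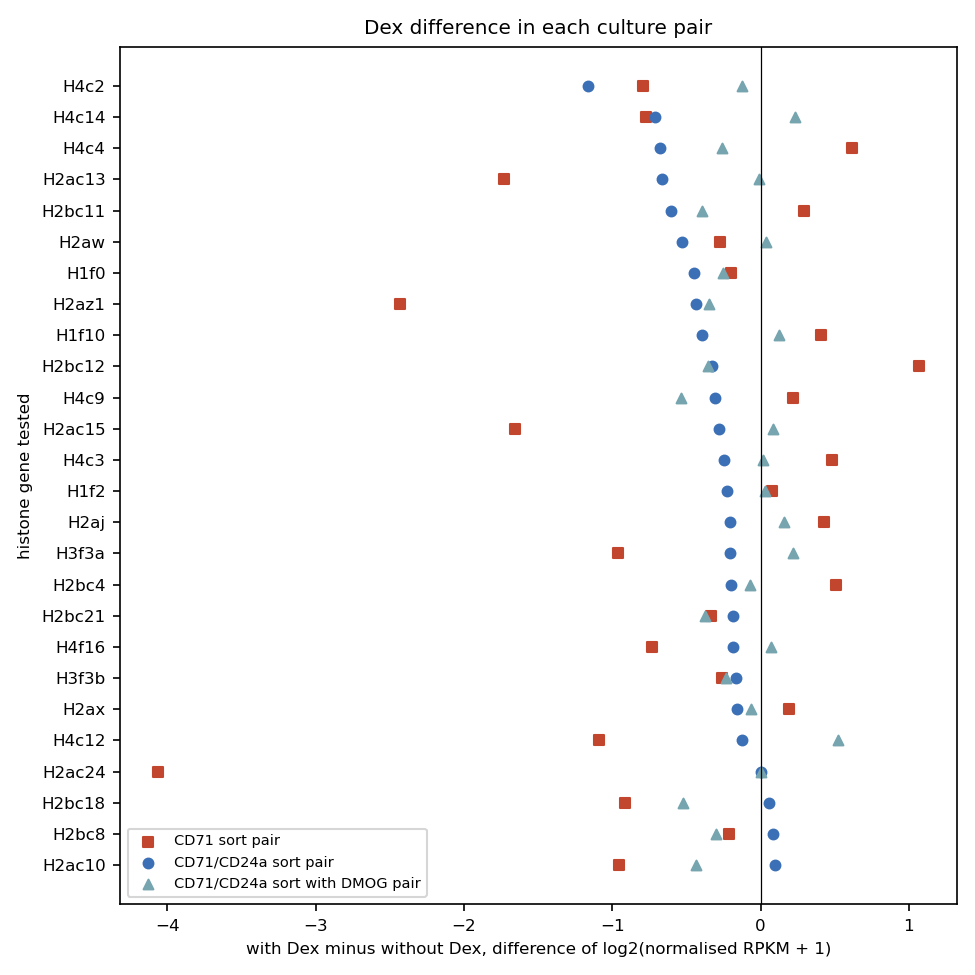
Arm with Dex minus its paired arm without Dex for each of the 26 tested histone genes (rows), on the log2(normalised RPKM + 1) scale, with 1 symbol per pair. H1f0 lies below 0 in all 3 pairs, at −0.20, −0.45 and −0.25, and 0 genes lie above 0 in all 3.

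DMOG was read from 2 pairs of CD71/CD24a sort libraries in the same model, and 0 of 26 members passed, against 0.0210% of genes. At an unadjusted p under 0.05 there were 4, all lower with DMOG: H4c2 (−0.88), H4c14 (−0.84), H2bc8 (−0.37) and H3f3a (−0.65). Of all genes, 3.64% were under that threshold in either direction. The lowest limma adjusted p of a member was 0.997. H3f3a had 7.45 with Dex and DMOG and 6.26 with DMOG alone, against 10.5 with Dex and 12.2 with water, so both DMOG arms lay below both arms without it. Fitted on the 4 CD71/CD24a libraries alone, 3 members were lower with DMOG, H3f3a (limma adjusted p = 0.00652), H4c14 (0.0394) and H4c2 (0.0395), where 0.378% of genes were. No member passed for the combined action of Dex and DMOG, and 0 of 9535 genes did. There were 6 members at an unadjusted p under 0.05, all positive, against 2.88% of genes in either direction.

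The 2 sorts differed widely. Between the 2 CD71/CD24a sort libraries without DMOG and the 2 CD71 sort libraries, in the fit of all 6 cultures, 54.2% of all genes passed (60.7% at an unadjusted p under 0.05), and 15 of 26 members did (17 unadjusted). Of these, 5 were higher in the CD71/CD24a sort (29.1% of genes) and 10 were lower (25.0%). The 2 CD71/CD24a libraries with DMOG do not enter this difference, and their values are given as description. H2ac10 had 0.570, 0.470, 0.331 and 0.801 normalised RPKM in the CD71/CD24a sort (Dex, water, Dex with DMOG, DMOG), against 9.01 and 18.4 in the CD71 sort (Dex, water). H2ax had 38.4, 43.0, 40.9 and 42.9, against 111 and 96.7, a difference of −1.33 (SE 0.106). H4c9 had 4.59, 5.93, 4.75 and 7.35, against 15.7 and 13.3 (−1.31). H1f10 had 4.18, 5.82, 6.39 and 5.79, against 16.5 and 12.2 (−1.36). H1f0 was the other way round, with 25.1, 34.6, 23.7 and 28.4, against 19.9 and 23.0 (0.45), as was H1f2 with 5.37, 6.45, 5.08 and 4.97, against 3.17 and 2.95 (0.76).

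The other called members were H3f3b (0.55), H2bc18 (0.98) and H4f16 (0.71), higher in the CD71/CD24a sort, and H3f3a (−1.13), H2ac13 (−1.74), H2ac15 (−1.74), H2bc8 (−0.85), H2bc11 (−0.88) and H4c3 (−0.70), lower in it. Of 23 S phase genes 3 were higher and 13 lower in the CD71/CD24a sort (29.1% and 25.0% of all genes). Depth was 18.5 to 53.0 M reads in the CD71/CD24a sort and 11.9 and 13.0 M in the CD71 sort, and the libraries of each pair are divided arms of sorted cells, so that sort, pool of cells and depth cannot be told apart. Without the CD71 sort water library 6 members were higher and 13 lower (34.3% and 31.2% of genes).

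Markers of other cells moved with the sorts. Of all genes, 29.1% were higher and 25.0% lower in the CD71/CD24a sort. In the same limma test, of 8 erythroid markers 4 were lower in the CD71/CD24a sort, Hba-a1 (−4.82), Klf1 (−1.30), Epor (−1.07) and Slc4a1 (−0.73), and Tfrc was higher (0.36). The neutrophil and mast cell markers tested, Prtn3 (−2.20) and Mpo (−1.40), were both lower. Of 3 hepatocyte markers Alb (1.68) and Afp (1.37) were higher. Endothelial markers had Pecam1 higher (0.56) and Eng lower (−1.51), of 2 tested. Megakaryocyte markers had Itgb3 higher (0.88) and Gp9 lower (−0.77), of 6, and of 4 early progenitor markers Cd48 was lower (−0.62). The 1 lymphoid marker tested did not pass, and 0 macrophage markers were high enough to test. The part of these cells in the histone values was not tested.

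The CD71 sort water library held the high values of 12 members. At least 3 times the level of every other culture was seen there for 12 members, all with 59.7% or more shared sequence, against 58 of 9913 genes (0.585%). H2ac24 had 0 reads in the other 8 libraries and 92 reads (15.7 normalised RPKM) in this one, and H3c14 had 0 and 67 reads (3.01). H2az1 had 316 there, against 52.5 to 71.4 in the other 5 cultures. Of the 50 such genes with a sharing value 47 shared 10% or more, against 24.8% of all 9684 with a value. The 4 members with under 10% shared sequence differed from the mean of the other cultures (log2 scale) by −0.21 to 0.40. At 3 times or more of every other culture, the CD71 sort Dex library held 1 member and 11 of all genes. The CD71/CD24a sort water library held 0 members and 1 gene. The Dex, Dex with DMOG and DMOG libraries of that sort held 0 members and 0 genes. Why shared genes stood high in the CD71 sort water library was not tested. The Dex difference in the CD71/CD24a sort differed from that in the CD71 sort, which rests on this library, in 11 of 26 members (6.03% of all genes), with 6 positive (3.48%) and 5 negative (2.55%). That limma test was added after seeing the data. Its p-values hold only the spread between the pairs of the CD71/CD24a sort, and no error of the single CD71 pair. The 12 higher replication-dependent genes in the comparison of the CD71 sort water culture with fresh BFU-E rest on that culture's library. Of them 0 had under 10% shared sequence, as had only 3 of the 36 replication-dependent genes expressed in that comparison.

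**Figure D5:**
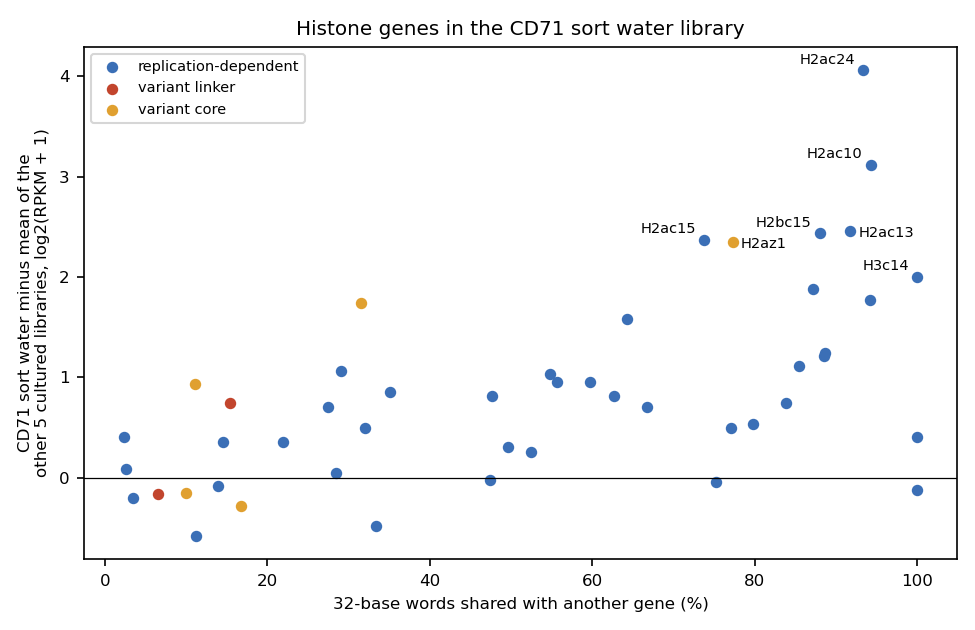
Level in the CD71 sort water library relative to the mean of the other 5 cultures, on the log2(normalised RPKM + 1) scale, against the percent of sequence shared with other genes, with 1 point for each of 47 histone genes. Of 25 genes sharing 50% or more, 14 lie over 1, and of 22 sharing less, 2 do. The mean takes in the CD71/CD24a sort libraries, so differences between the sorts also enter this axis. H2ac10 had 18.4 in this library, 9.01 in the CD71 sort Dex library and 0.331 to 0.801 in the CD71/CD24a sort. Sharing is over the whole annotated transcript, so genes counted over a shorter stretch could belong in the other group.

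The 5 other genes whose levels followed H1f0 most closely over the 9 libraries were Apobec2 (Pearson r 0.92), Iqgap2 (0.92), Tube1 (0.91), Fyn (0.89) and Madd (0.89). All 5 were highest in fresh BFU-E, with 3.48 for Apobec2, 35.7 for Iqgap2, 5.68 for Tube1, 24.0 for Fyn and 22.7 for Madd. These values describe 9 libraries that differ in sort, culture and depth.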

How the data were processed

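RNA-seq of 9 libraries was used as deposited: RPKM per RefSeq transcript record, computed by the authors, with the build named as mm9 in the submitters' processing notes. Aligner, strand and handling of reads with several matches are not given in the sources used here. In the 4 CD71/CD24a files an exact 1 stood where other files had 0 and was read as 0. Symbols came from RefSeq (22397 of 23041 records) and GENCODE (114), and 530 records had none. The record highest on average stood for each of the 7 histone genes held in more than 1. Reads were recovered from the steps between low values, of which 66.5% to 69.8% came out whole within 0.1 reads (20% by chance). For 35 members the counted length was not settled, so their read numbers are approximate. Libraries were divided by median-ratio factors over 6888 genes.

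Differences are on log2(normalised RPKM + 1), which understates changes of low genes. Fresh libraries were compared by a 2-fold rule among genes at 1 or more in either library, with exact (Clopper-Pearson) 95% intervals for counting error only. The 6 cultures were tested with limma 3.58.1 (R 4.3.3), with the culture pair as a block, on genes averaging 1 or more. The script was tested on simulated data. The pairing comes from the protocol; same-pair deviations correlated at r = 0.81, 0.77 and 0.70. Members were named with values if they averaged 5 or more, passed limma, or were among the 5 largest or smallest fresh differences; partner genes if they passed limma or 2-fold, at most 6 per list. The members and lists were chosen with earlier results of these data known. Alternatives covered scaling, pseudocount, filters, exact 1 values, records, left-out pairs and the block.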

Additional observations from a re-analysis of the deposited data

Results flagged for a closer look

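The Dex difference differed between the 2 sorts in 11 of 26 histone members, by a limma test of the difference itself that was chosen after seeing the data (adjusted p under 0.05, against 6.03% of all genes). The value is the Dex difference in the CD71/CD24a sort minus that in the CD71 sort, which rests on 2 pairs and 1 pair. The 1 CD71 pair is fitted exactly. The p-values therefore hold only the spread between the 2 CD71/CD24a pairs and no error of the CD71 pair. It was positive for H2ac24 (4.06), H2az1 (2.04), H2ac15 (1.56), H2ac13 (1.40), H4c12 (1.29) and H3f3a (0.97). It was negative for H2bc12 (−1.41), H4c4 (−1.09), H2bc11 (−0.79), H4c9 (−0.64) and H2bc4 (−0.64). All 11 share 10% or more of their sequence with other genes, as do 23 of the 26 members tested. Of all genes called positive 62.8% did, and of those called negative 35.6%, against 24.7% of all genes tested. The Dex difference within the CD71 sort was −4.06 for H2ac24 and −2.43 for H2az1, both of which stood highest in the CD71 sort water library. The part of that library in these values was not tested.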

How the results depend on the processing

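Among the alternative values of counts and medians, 107 kept their direction and size, 35 moved and 3 changed sign. With a pseudocount of 0.1, the CFU-E over BFU-E comparison had 5 members higher (5 replication-dependent) and 11 lower (9). Ter119+ over BFU-E then had 2 lower (1), and the CD71/CD24a water culture over BFU-E had 5 higher (4). A smaller pseudocount widens the differences of low genes of any kind. The shares of all genes at this setting were not computed, so these counts have no background beside them. On RPKM as deposited, Ter119+ cells had 23 members higher than CFU-E (20 replication-dependent) and 24 higher (21) and 3 lower (1) than BFU-E. The replication-dependent medians became 0.55 and 0.65, and the somatic variant medians turned to −0.14 and −0.17. H2ac10 turned to −0.015 over CFU-E and H2az1 to −0.17 over BFU-E. Among members with under 10% shared sequence, chosen after seeing the data, 1 was higher and 2 lower in CFU-E than in BFU-E, 5 were higher in Ter119+ than in CFU-E cells, and 5 higher and 0 lower than in BFU-E. The CD71 water culture had 0 higher and 2 lower, the CD71/CD24a water culture 0 and 0. The shares of all genes in these comparisons, without a limit on sharing, are those given above. Medians were then 2.26 and 2.16 for replication-dependent genes over CFU-E and BFU-E. The somatic variants, then H1f0 alone, were at −1.20 (CFU-E over BFU-E), 0.44 and −0.76.

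Leaving out a pair gave 0 to 6 members for Dex. DMOG had 3 members on the 4 CD71/CD24a libraries. Leaving out the CD71 sort water library alone leaves its Dex partner unpaired. The Dex and DMOG differences are then those found without the whole CD71 pair, by design. Without the replicate block, 0 members passed for Dex and 0 for DMOG. The difference in Dex between sorts had 7 members with no filter, 7 positive and 0 negative (0.205% and 0.0128% of 15602 genes), so that all 5 negative members lost their call. For Dex, leaving out a pair put H1f10 between −0.14 (without the CD71 pair, and also without its water library) and 0.26, and H2ax between −0.11 and 0.062 (0.017 without the DMOG pair). The causes were not tested. At 1 library per condition, counting error is the only error known for fresh cells.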
